A study of Mus musculus with 29 samples.

Results

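The genes described here encode voltage-gated ion channels and their relatives, in the families of potassium (Kcn), calcium (Cacn), sodium (Scn followed by a digit) and hyperpolarization-activated (Hcn) channels. They were all genes whose annotated symbol starts that way and for which 1 or more of 29 arrays gave a probe a detection p-value under 0.01. Of 110 such symbols with a named probe, 59 met this rule, among 10768 genes kept, and 51 were detected on no array. The 59 members were 39 Kcn, 12 Cacn, 6 Scn and 2 Hcn genes. Since a gene passes when it is detected in any group, a gene that passed through a single group had to be brighter there. Members detected in OPT-tm prostates only were 6 (Cacna1d, Kcnh5, Kcnip2, Kcnk10, Scn1a and Scn8a), against 2 in OPT18 Early-ADC only, 2 in T18 only and 0 in T30 only, and none of these 6 was called in OPT-tm against T30 at the settings used throughout.

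Voltage-gated channels open a pore for potassium, calcium or sodium when the membrane potential changes, and in neurons and endocrine cells they shape action potentials and the calcium entry that triggers secretion. The pore is formed by an alpha subunit, and auxiliary subunits set how much channel reaches the membrane and how fast it opens and closes. The two-pore domain and inward rectifier potassium channels carry Kcn symbols too but are not gated by depolarization, and they help to hold the resting potential of many cell types, epithelium included.

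RNA of 29 prostates, 1 mouse each, had been hybridised to Illumina MouseRef-8 v2.0 BeadChips, and values are log2 signals after quantile normalization. The groups were 3 OPN-/-TRAMP prostates with a palpable NE tumor at 18 wks of age (OPT-tm), 13 OPN-/-TRAMP prostates of that age without one (OPT18), 5 OPN-/-TRAMP prostates at 15 wks (OPT15), 4 of 30 wks old TRAMP mice with adenocarcinoma (T30) and 4 of 18 wks old TRAMP mice (T18). All mice carried the TRAMP transgene, in which the probasin promoter drives SV40 T antigens in prostate epithelium, and the OPN-/-TRAMP mice also lacked osteopontin (Spp1), for which no probe is named here, so that its loss was not checked. Mice are named as in the labels, where the OPT-tm mice too have names starting with OPT18. Prostates without palpable tumor carry an early class in the labels, where Ineuntes stands for Early-NE (4 OPT18 and 1 OPT15) and Reliquia for Early-ADC (9 OPT18, 4 OPT15 and all 4 T18). These classes came from clustering of the same arrays on genes that differ between tumors, so the difference between them is described with no test. In OPT-tm against T30, age and genotype differed together with tumor type and cannot be told apart from it.

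Between 11 and 41 members (median 25) were detected per array. The share of all probes detected ran from 38.7% to 51.8% (median 48.0%) and was lower on every array of chips 3 and 4 than on any of chips 1 and 2. Members detected on every array of the group numbered 28 on the 3 OPT-tm arrays and 7 on the 4 T30 arrays. These counts are not alike, since OPT-tm had no array on chip 4. There, mouse T30_6768 had 39.8% of probes and 11 members detected. The same share over all genes was not counted. The labelled tissues were set against marker genes. The mean log2 signal of the 9 measured of 10 NE markers ran from 12.30 to 12.71 in OPT-tm, 10 to 11.31 in OPT18 Early-NE, 8.64 to 9.82 in OPT18 Early-ADC, 8.08 to 8.30 in T30 and 8.55 to 9.05 in T18, and 5 of the 9 were detected on no T30 array. Luminal markers (6 of 8 measured) averaged 9.75 to 10 in OPT-tm, against 11.64 to 12.59 in T30, and smooth muscle markers (10 of 10) 9.65 to 9.79 in OPT-tm, against 12.31 to 12.82 in T30. Seminal vesicle markers (5 of 5) averaged 8.07 to 8.71 in OPT-tm and were all lower there than in T30 (median -5.60) and OPT18 (median -7.13). Within T30 they averaged 8.87 in mouse T30_6771, against 15.49, 15.67 and 15.43 in mice T30_6775, T30_6769 and T30_6768. In these bulk samples fewer cells of a type and less RNA per cell cannot be told apart.

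Promoter sequence was available from RefSeq (GRCm38.p6) for 45 of the 59 members, including 9 of the 15 members called higher in OPT-tm against T30 and 3 of the 4 called lower. The 250 bases before the start are shown for 3 genes that were higher, Kcnc1 (chr7:46396218-46396467), Hcn2 (chr10:79716384-79716633) and Cacna2d1 (chr5:15934441-15934690), and for Kcnk1 (chr8:125994852-125995101), the gene that fell furthest, all on the plus strand and written 5′ to 3′. Capitals mark the GC box GGGCGG on either strand, and overlapping boxes run together.
Kcnc1: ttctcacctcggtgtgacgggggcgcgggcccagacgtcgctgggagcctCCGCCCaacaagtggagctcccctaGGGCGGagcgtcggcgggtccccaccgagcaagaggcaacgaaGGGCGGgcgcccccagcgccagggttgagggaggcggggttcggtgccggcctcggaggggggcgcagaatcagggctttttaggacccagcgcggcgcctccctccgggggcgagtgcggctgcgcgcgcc
Hcn2: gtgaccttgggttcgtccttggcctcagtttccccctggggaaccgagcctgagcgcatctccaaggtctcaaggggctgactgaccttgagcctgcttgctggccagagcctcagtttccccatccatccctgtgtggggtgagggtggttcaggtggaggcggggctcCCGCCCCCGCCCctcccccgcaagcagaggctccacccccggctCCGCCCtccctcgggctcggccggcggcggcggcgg
Cacna2d1: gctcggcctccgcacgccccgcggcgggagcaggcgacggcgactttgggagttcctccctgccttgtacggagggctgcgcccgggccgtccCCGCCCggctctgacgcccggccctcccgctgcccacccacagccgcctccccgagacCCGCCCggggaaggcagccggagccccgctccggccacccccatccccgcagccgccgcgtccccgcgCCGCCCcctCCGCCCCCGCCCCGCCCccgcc
Kcnk1: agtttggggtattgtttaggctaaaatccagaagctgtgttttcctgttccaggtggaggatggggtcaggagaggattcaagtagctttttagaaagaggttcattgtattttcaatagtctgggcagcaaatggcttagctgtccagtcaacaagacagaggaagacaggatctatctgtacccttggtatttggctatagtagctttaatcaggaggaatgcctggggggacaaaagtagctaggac

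Kcnc1 and Hcn2 held 3 GC boxes each, Cacna2d1 held 6 and Kcnk1 held 0. The GC content of these windows was 74.4% for Kcnc1, 70.4% for Hcn2, 82.4% for Cacna2d1 and 44.4% for Kcnk1, and Kcnk1 held 0 CpG dinucleotides against 30, 16 and 36 in Kcnc1, Hcn2 and Cacna2d1. Over the matched genes, with the starts of a gene averaged, median GC content was 66.5% for those higher and 60.6% for members not called. It was 50.8% for those lower and 52.4% for all genes. Median CpG counts in that order were 9.33, 14, 1 and 6. The 3 windows shown for higher genes thus lay above the medians of their set. With every annotated start counted, a GC box stood in 8 of 9 matched genes that were higher, in 0 of 3 that were lower, in 22 of 33 members not called (66.7%) and in 35.4% of all 27025 genes of the table. These sets held 14, 3, 49 and 32851 windows, so the number of windows per gene was not alike. The E-box CAGCTG stood in 2 of 9, 1 of 3 and 13 of 33 of these members and in 14.7% of all genes. TTCAGCACC, the left part of the RE1 element bound by the repressor REST, stood in 0 of 45 members and 0.348% of all genes. The motifs were searched on both strands with the results known, and a match is a description of the letters only.

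OPT-tm prostates were compared with T30 prostates, the main contrast of NE tumor with adenocarcinoma. Of the 59 members, 15 were higher in OPT-tm (25.4%, against 11.5% of all genes tested) and 4 were lower (6.78%, against 12.5%), at an adjusted p under 0.05 and at least a 2-fold change. The higher ones were 6 Cacn, 6 Kcn, 1 Scn and both Hcn genes. All 15 were detected on every OPT-tm array, and 7 of them on no T30 array. The median log2 difference was 0.31 over members and -0.03 over all genes, and by family it was 1.12 for Cacn, 0.12 for Kcn, 0.11 for Scn and 2.31 for the 2 Hcn genes. A further 7 members passed the adjusted p with less than a 2-fold change (4 higher and 3 lower), and 33 did not pass it. An unadjusted p under 0.05 was reached in limma by 30 of the 59 members and by 5530 of 10768 genes.

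**Figure D1:**
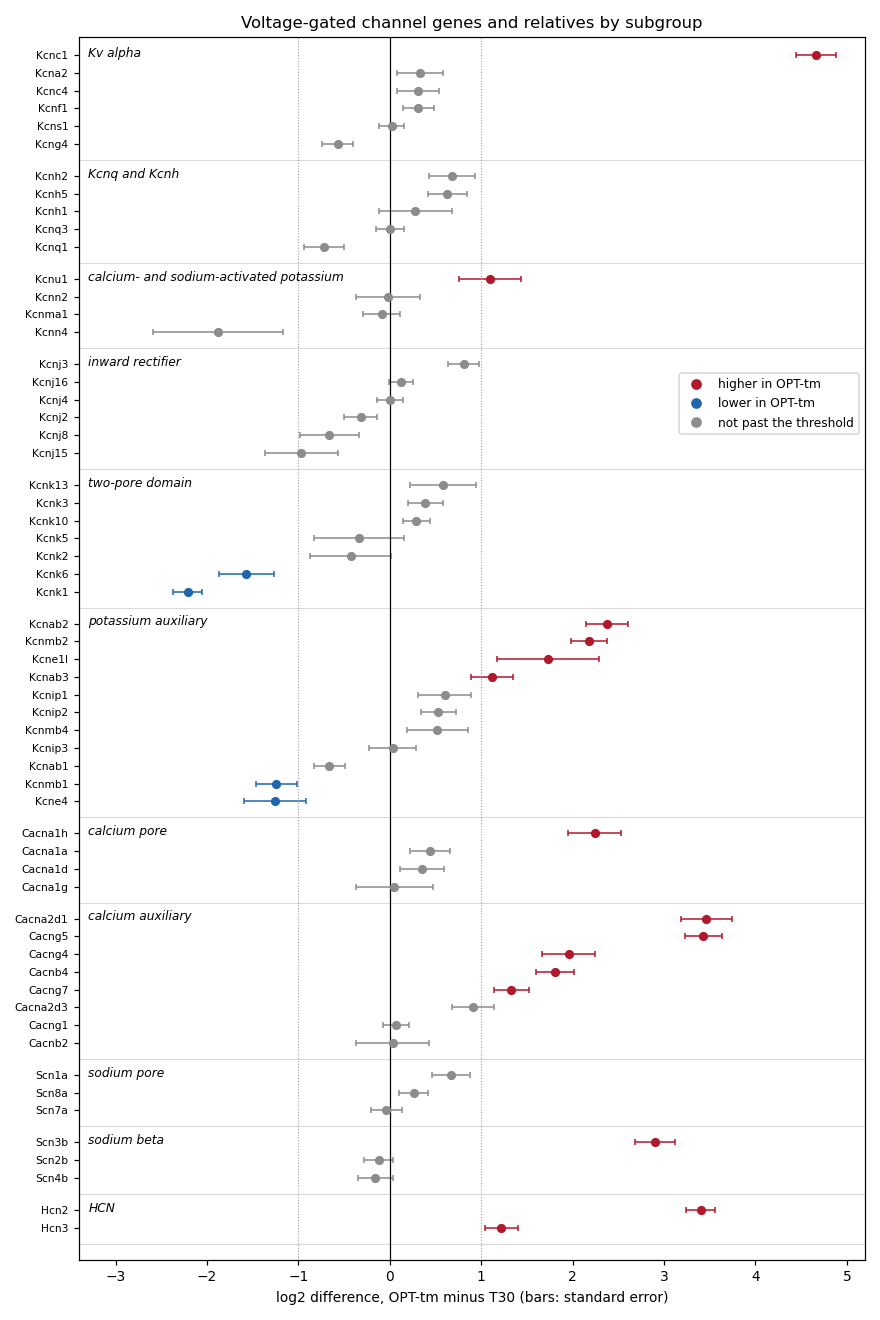
Log2 difference of OPT-tm minus T30 prostates for the 59 genes (x axis, bars give the standard error, dotted lines a 2-fold change), grouped by subunit type. Red genes were higher, blue genes lower and grey genes not past the threshold. Kcnc1 lies furthest right at 4.66 and Kcnk1 furthest left at -2.21.

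Among pore-forming potassium channels gated by voltage (Kv alpha), 1 of 6 members rose. Kcnc1 encodes Kv3.1, a fast delayed rectifier known for letting neurons fire at high rates. Its log2 signals were 11.83, 12.50 and 12.72 in OPT-tm, against 7.84, 7.68, 7.59 and 7.64 in T30. The groups were far apart, and no T30 array detected the gene, so that its fold change is a lower bound, taken against the lowest detected signal of each T30 array. Kcnc1 was at least 12.1-fold higher in OPT-tm (log2 difference 4.66, standard error 0.22, adjusted p = 2.67e-06 from limma), the largest difference among the 59 members. Within chips 1, 2 and 3, which each held 1 array of both groups, the difference was 3.99, 4.82 and 5.13. The other Kv alpha members differed by -0.57 to 0.33 and did not pass.

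Both hyperpolarization-activated channels, which carry the pacemaker current of heart and neurons, were higher. Hcn2 had log2 signals of 11.95, 11.75 and 11.62 in OPT-tm, against 8.48, 8.13, 8.38 and 8.52 in T30. All OPT-tm values stood above all T30 values, and Hcn2 was at least 8.09-fold higher (log2 difference 3.40, standard error 0.16, adjusted p = 2.67e-06 from limma). Hcn3 had 9.25, 9.62 and 9.67 in OPT-tm, against 8.33, 8.22, 8.56 and 8.05 in T30. The groups did not overlap, and Hcn3 was at least 1.69-fold higher (adjusted p = 0.000877 from limma). A second Hcn3 probe differed by 0.18 (adjusted p = 0.339 from limma), so the call of Hcn3 rests on the choice of probe.

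Calcium channel auxiliary subunits held most of the rises of that family, with 5 of 8 members higher and a median of 1.57. Cacna2d1 encodes the alpha2delta-1 subunit, which brings calcium channels to the membrane and binds gabapentin. It had log2 signals of 13.31, 13.22 and 12.65 in OPT-tm, against 9.99, 9.92, 9.50 and 9.0 in T30. The gene was detected in 3 of 4 T30 prostates but every OPT-tm value lay well above them (log2 difference 3.46, standard error 0.28, adjusted p = 3.8e-05 from limma). Cacng5, a gamma subunit that also regulates AMPA receptors, had 10.88, 11.07 and 11.52 in OPT-tm, against 7.57, 7.52, 8.01 and 7.80 in T30. It was undetected in T30 and at least 5.28-fold higher in OPT-tm (adjusted p = 7.13e-06 from limma), and a second probe differed by 2.06.

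Cacng4, a gamma subunit of the same AMPA receptor regulating group, had 10.17, 9.44 and 10.49 in OPT-tm, against 7.89, 8.30, 8.47 and 7.63 in T30, and was at least 2.43-fold higher (adjusted p = 0.000922 from limma). Cacnb4, a cytoplasmic beta subunit, and Cacng7, a further gamma subunit, lay outside the rule for named genes and were chosen after their values were seen. Their log2 differences were 1.81 (standard error 0.21) for Cacnb4 and 1.33 (standard error 0.19) for Cacng7, with no overlap between groups for either. Cacnb2, another beta subunit, had 9.91, 8.18 and 8.17 in OPT-tm, against 8.99, 8.68, 8.54 and 8.67 in T30. Mouse OPT18_1333 alone stood high, the groups overlapped, and the difference of 0.03 (standard error 0.40) became -0.55 without that mouse.

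Of the calcium pores, 1 of 4 rose. Cacna1h, the T-type channel Cav3.2 that opens near the resting potential, had 10.41, 9.96 and 11.12 in OPT-tm, against 8.70, 8.06, 8.35 and 7.94 in T30. The groups did not overlap (log2 difference 2.24, standard error 0.29, adjusted p = 0.000484 from limma). Cacna1a, the P/Q-type pore of nerve terminals, had 8.46, 8.87 and 9.36 in OPT-tm, against 8.34, 8.40, 8.65 and 8.42 in T30. These values overlapped, and the difference of 0.44 did not pass (adjusted p = 0.132 from limma). Cacna1d and Cacna1g, the remaining calcium pores, differed by 0.35 and 0.05. Cacna1b and Cacna1c, pores of the N and L types, were among the 51 symbols detected on no array.

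Sodium channels showed 1 rise in 6 members, in a beta subunit. Scn3b, a single-span subunit that modulates sodium current in neurons, had 10.88, 10.37 and 11.28 in OPT-tm, against 8.07, 7.87, 7.79 and 8.06 in T30. It was undetected in T30 and at least 4.25-fold higher in OPT-tm (log2 difference 2.90, standard error 0.22, adjusted p = 2.73e-05 from limma), and a second probe differed by 1.83. None of the 3 sodium pores passed here. Scn1a and Scn8a, which carry sodium current in neurons, were detected in 1 OPT-tm prostate each and differed by 0.67 and 0.26, and Scn7a by -0.04. With neqc, which subtracts background before the log, Scn1a was called higher at 1.43. Scn1a was detected in OPT-tm alone and so had to be brighter there, and its call is no support for a rise.

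The auxiliary subunits of potassium channels moved both ways, with 4 of 11 members higher and 2 lower. Kcnab2, a cytoplasmic beta subunit of Kv channels, had 13.24, 12.39 and 13.24 in OPT-tm, against 10.64, 10.57, 10.39 and 10.72 in T30. It was detected on every array of both groups, which lay clearly apart (log2 difference 2.38, standard error 0.23, adjusted p = 0.000101 from limma). Kcnmb2, an inactivating beta subunit of the large-conductance BK channel, had 10.55, 10.05 and 10.81 in OPT-tm, against 8.16, 8.17, 8.36 and 8.47 in T30, and was at least 3.28-fold higher (adjusted p = 8.27e-05 from limma). Kcnmb1, the BK beta subunit of smooth muscle, had 8.29, 8.16 and 8.21 in OPT-tm, against 9.72, 9.85, 9.27 and 9.0 in T30. No OPT-tm array detected Kcnmb1, which was lower in OPT-tm by at least 1.75-fold (adjusted p = 0.00226 from limma), while Kcnma1, the pore these 2 subunits join, differed by -0.09. Beside Kcnmb1, 8 of 10 smooth muscle markers were lower in OPT-tm (median -3.01), and their part in its value was not tested.

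Kcne4, a single-span subunit that inhibits several potassium channels, had 8.29, 8.21 and 8.23 in OPT-tm, against 9.27, 10.43, 9.51 and 8.80 in T30. Every OPT-tm value was below the T30 range, with T30 mouse T30_6775 the highest, and Kcne4 was at least 1.80-fold lower in OPT-tm (adjusted p = 0.016 from limma). Without mouse T30_6775 its difference was -0.95, under the 2-fold limit. Kcnab3, another Kv beta subunit, had 9.32, 10.07 and 9.72 in OPT-tm, against 8.62, 8.44, 8.31 and 8.96 in T30, with no overlap. Its difference of 1.12 (standard error 0.23, adjusted p = 0.00451 from limma) was 0.94 without OPT-tm mouse OPT18_1340, again under 2-fold.

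Kcne1l, a single-span subunit on chromosome X named after its values were seen, had 11.02, 9.05 and 10.97 in OPT-tm, against 8.25, 9.78, 8.37 and 8.07 in T30. OPT-tm mouse OPT18_1340 fell below T30 mouse T30_6775, so the groups overlapped, and within chip 2, which held both mice, the difference was -0.73, against 2.77 and 2.60 within chips 1 and 3. Its call (log2 difference 1.73, adjusted p = 0.0363 from limma) ended without mouse OPT18_1333, OPT18_1335, T30_6771, T30_6769 or T30_6768, where the adjusted p from limma was 0.0756 to 0.132, with no detection filter (0.0663) and with the chip as a block (0.166). Kcnu1, the pH-sensitive potassium channel Slo3 of sperm, had 9.66, 9.97 and 10.16 in OPT-tm, against 9.45, 8.01, 8.61 and 9.26 in T30. The groups did not overlap but lay close on chip 1 (0.21), and the call (1.10, adjusted p = 0.0286 from limma) ended without mouse OPT18_1340, OPT18_1335, T30_6775 or T30_6769 and with the chip as a block (adjusted p = 0.0534 from limma). Apart from Kcne1l, the genes called higher differed upward within each of the 3 chips, and all 4 called lower differed downward.

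**Figure D2:**
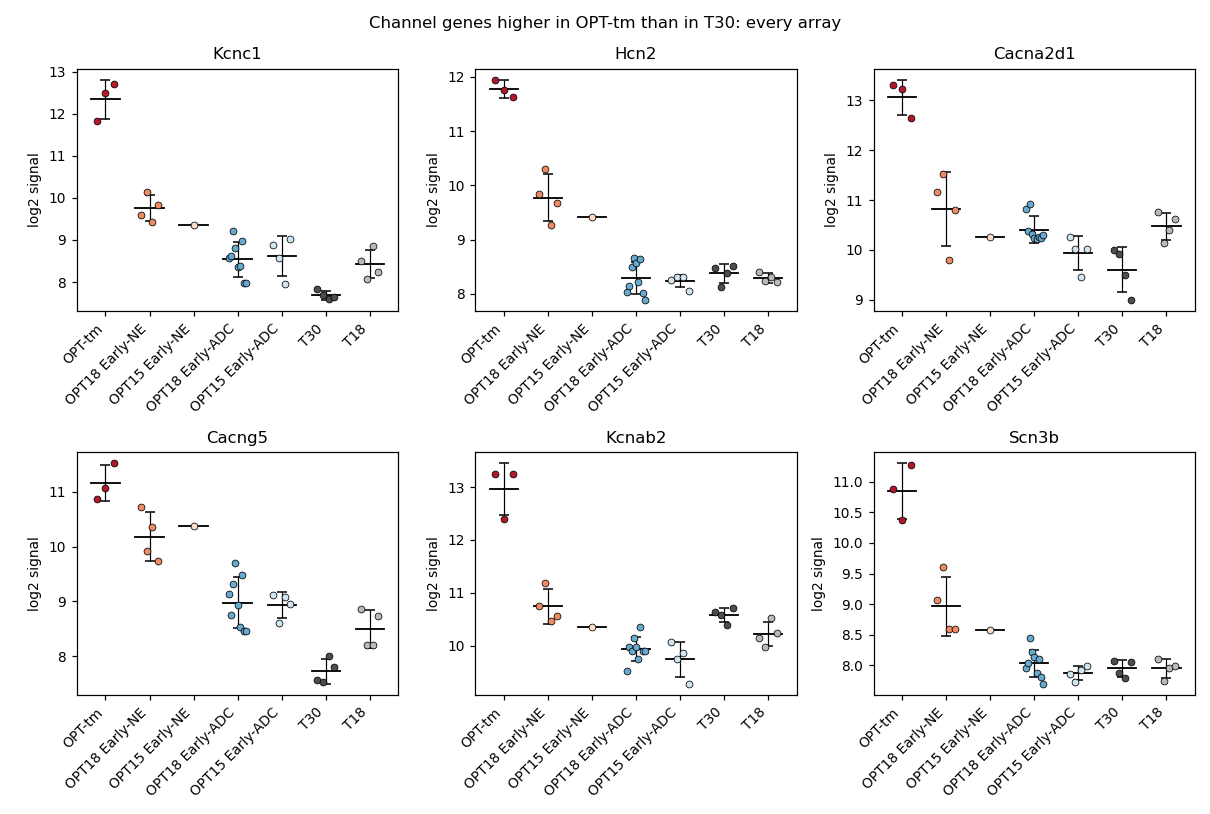
Log2 signals (y axes) of 6 genes higher in OPT-tm against T30, 1 point per array, by group (x axes), with lines at group means and bars giving the SD. The 3 OPT-tm prostates stand above all other arrays for each of the 6 genes, and all Early-NE prostates stand above all T30 and T18 prostates for Kcnc1, Hcn2, Cacng5 and Scn3b.

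Among 7 two-pore domain channels 2 were lower in OPT-tm and none higher. Kcnk1 encodes TWIK-1, a weak background potassium channel present in many epithelia. It had log2 signals of 12.25, 12.51 and 12.12 in OPT-tm, against 14.36, 14.55, 14.67 and 14.41 in T30. The groups stood apart on every chip they shared (log2 difference -2.21, standard error 0.16, adjusted p = 2.08e-05 from limma), with differences of -2.11, -2.05 and -2.56 within chips 1, 2 and 3. Kcnk6, the related TWIK-2, had 9.13, 9.05 and 9.10 in OPT-tm, against 10.18, 11.39, 10.91 and 10.18 in T30. The OPT-tm values were nearly equal and the T30 values spread over more than a 2-fold range above them (log2 difference -1.57, standard error 0.30, adjusted p = 0.0032 from limma), and a second probe differed by -1.03. Beside both genes, 4 of 6 luminal markers and 4 of 4 basal markers were lower in OPT-tm (medians -2.91 and -2.95), and their part was not tested.

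Kcnk5, the acid-sensitive TASK-2 and a member detected on all 29 arrays, had 11.51, 10.46 and 10.95 in OPT-tm, against 11.88, 10, 11.28 and 12.09 in T30. These ranges overlapped (log2 difference -0.34, standard error 0.49, adjusted p = 0.608 from limma). Kcnh2, the ERG channel of cardiac repolarization, also detected on all 29 arrays, had 10.62, 10.49 and 10.52 in OPT-tm, against 10.14, 9.19, 9.91 and 10.21 in T30. Its values did not overlap, but the difference of 0.68 did not pass (adjusted p = 0.0544 from limma), while a second probe, at 0.72, had an adjusted p of 0.0297 over probes. No member of the inward rectifiers (6) or of the Kcnq and Kcnh channels (5) passed at these settings, with differences of -0.97 to 0.81 and -0.72 to 0.68. Other settings called some of them, as neqc did Kcnj3 (1.70) and Kcnh5 (1.13) higher and Kcnq1 (-1.55) lower, and leaving out mouse T30_6771 did Kcnj15 (-1.33) lower. Of these, Kcnh5 was detected in OPT-tm alone and so had to be brighter there. Kcnn4, a calcium-activated channel of blood cells and epithelium named after its value was seen, had 7.99, 7.87 and 8.03 in OPT-tm, against 7.89, 11.57, 10.27 and 9.66 in T30. Mouse T30_6771 alone lay within the OPT-tm range, and the difference of -1.88 (standard error 0.71) did not pass (adjusted p = 0.0605 from limma). Kcnn4 was called lower without that mouse (-2.54, adjusted p = 0.00291 from limma) and in the fit over all 29 arrays (adjusted p = 0.000749 from limma). Mouse T30_6771 was also low in seminal vesicle markers (8.87), and their part was not tested.

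OPT-tm prostates were next compared with the 13 OPT18 prostates of the same age and genotype without a palpable tumor. Here 13 members were higher (22.0%, against 12.3% of all genes) and 3 were lower (5.08%, against 13.6%), and the median difference was 0.35 over members and -0.01 over all genes. The 13 that rose were 86.7% of the 15 higher against T30 and 100% of those higher here, and of the lower genes 2 were shared, which is 50% of the 4 and 66.7% of the 3. Both comparisons use the same OPT-tm arrays, so this overlap is no independent repeat. The 2 genes called higher against T30 but not here were Kcnab3, at 1.12 against T30 and 0.87 against OPT18, and Kcnu1, at 1.10 and 0.50, and Kcnab3 was called here too with neqc (1.39) and without mouse OPT18_1333 (1.06). A further 26 members passed the adjusted p with less than a 2-fold change, 16 higher and 10 lower. An unadjusted p under 0.05 was reached in limma by 42 of 59 members and by 7232 of 10768 genes.

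Kcnc1 again differed most. Against 11.83, 12.50 and 12.72 in OPT-tm, the 13 OPT18 values ran from 7.97 to 10.14 with a median of 8.81 (log2 difference 3.44, standard error 0.38, adjusted p = 2.51e-07 from limma). No OPT18 prostate reached the OPT-tm range. Hcn2 ran from 7.89 to 10.31 in OPT18 with a median of 8.56, below its 3 OPT-tm values of 11.62 and above (log2 difference 3.02, adjusted p = 3.14e-06 from limma). Kcnab2 ran from 9.52 to 11.19 in OPT18 with a median of 9.97, also with no overlap (2.77, adjusted p = 5.01e-08 from limma). The highest of the 13 OPT18 values belonged to Early-NE mouse OPT18_1336 for all 3 genes.

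Kcnk1 was the clearest fall, with 12.25, 12.51 and 12.12 in OPT-tm, against 14.15 to 14.67 (median 14.47) in OPT18, a log2 difference of -2.13 (standard error 0.12, adjusted p = 2.06e-11 from limma). Kcnk6, at 9.05 to 9.13 in OPT-tm, ran from 9.70 to 10.50 in OPT18 (median 10.27), a difference of -1.14 (adjusted p = 2.23e-06 from limma). Both genes left no overlap between groups. Kcnc4 encodes Kv3.4, a fast inactivating potassium channel known from skeletal muscle and neurons. It was detected in no OPT-tm prostate (8.24, 8.19 and 8.70) and in all 13 OPT18 prostates (9.06 to 10.29, median 9.62), and was at least 1.92-fold lower in OPT-tm (adjusted p = 6.32e-05 from limma). Set against the 4 Early-NE prostates alone, the calls of Cacng5 (0.97 in place of 1.81), Kcne1l (1.47 in place of 2.10), Kcnc4 (-0.92) and Kcnk6 (-0.82) ended. The difference of Hcn2 was then 2.0 in place of 3.02. That class was drawn from these same arrays on genes that differ between tumors, so smaller differences were partly fixed in advance.

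**Figure D3:**
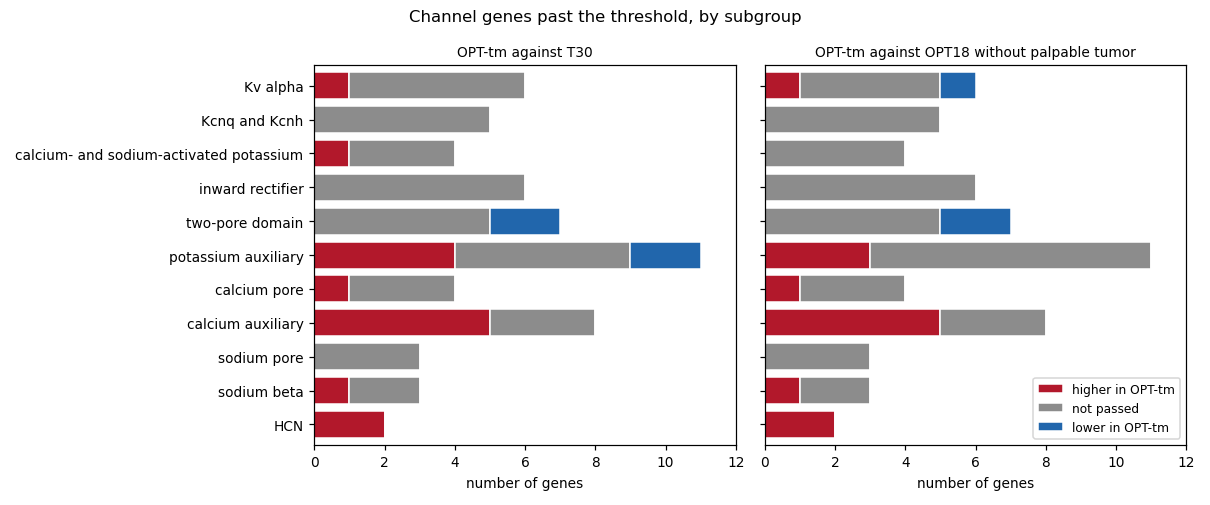
Number of genes (x axes) higher (red), not past the threshold (grey) and lower (blue) in OPT-tm, by subunit type, against T30 (left) and against OPT18 without palpable tumor (right). Calcium channel auxiliary subunits gave 5 of 8 genes higher in both panels, and two-pore domain channels gave 2 of 7 lower in both.

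In the 18 wks old OPN-/-TRAMP prostates without palpable tumor, the class labels went with the levels of several of these genes, as a description since the classes were drawn from the same arrays. Hcn2 was 9.84, 10.31, 9.27 and 9.68 in the 4 OPT18 Early-NE prostates (mice OPT18_444, OPT18_1336, OPT18_443 and OPT18_1339), against 7.89 to 8.66 (median 8.21) in the 9 OPT18 Early-ADC prostates. Kcnc1 was 9.60, 10.14, 9.43 and 9.84 in OPT18 Early-NE, against 7.97 to 9.22 (median 8.58) in OPT18 Early-ADC. Cacng5 was 10.72, 9.93, 10.36 and 9.73 in OPT18 Early-NE, against 8.46 to 9.71 (median 8.93). For these 3 genes all 4 Early-NE prostates stood above the highest Early-ADC prostate, by a narrow margin for Cacng5. The same held by narrow margins for Kcnab2 (10.46 and above, against up to 10.35), Kcnmb2 (8.47, against 8.36) and Scn3b (8.59, against 8.45). Kcnmb2 and Scn3b were each detected in 2 of the 4 Early-NE prostates. All 4 Early-NE prostates were below the lowest Early-ADC prostate for Kcnk1 (14.15 to 14.26, against 14.37 to 14.67) and Kcnk6 (9.70 to 10.15, against 10.24 to 10.50).

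Class means of Early-NE minus Early-ADC in OPT18 differed by 1.48 for Hcn2, 1.21 for Kcnc1 and Cacng5, 0.93 for Kcnmb2 and Scn3b and 0.81 for Kcnab2. They differed by 0.14 for Cacna1h and 0.15 for Cacnb4, whose Early-NE values all lay within the Early-ADC range, and by -0.11 for Kcnab3. The levels also varied among the Early-NE mice. Of the 15 genes that OPT-tm had higher than T30, 11 stood above every OPT18 Early-ADC prostate in mouse OPT18_444, 11 in mouse OPT18_1336, 7 in mouse OPT18_443 and 8 in mouse OPT18_1339. The classes were clustered on genes of that same contrast, so such genes were apt to separate. The share over all genes was not counted, and whether channel genes separated more than others cannot be read from these counts. Mice OPT18_444 and OPT18_1336 were on chip 2, where 51.8% and 51.0% of probes were detected, and mice OPT18_443 and OPT18_1339 on chip 4, with 41.5% and 39.5%. The NE marker mean was 10.86, 11.31, 10 and 10.65 in mice OPT18_444, OPT18_1336, OPT18_443 and OPT18_1339. The part of the chip in this split was not tested.

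Kcne1l showed the split most, at 10.03 and 9.69 in mice OPT18_444 and OPT18_1336, against 7.62 to 8.26 in OPT18 Early-ADC, and at 7.91 and 7.87 in mice OPT18_443 and OPT18_1339. Kcnmb2 was 9.89 and 9.74 in mice OPT18_444 and OPT18_1336 and 8.58 and 8.47 in mice OPT18_443 and OPT18_1339, against 7.96 to 8.36 in OPT18 Early-ADC. Cacng4 was 8.73 and 8.87 in the first pair and 8.18 and 8.11 in the second, against 7.83 to 8.22. In the pair on chip 4 Kcne1l and Cacng4 were thus within the Early-ADC range. The single OPT15 Early-NE prostate (mouse OPT15_2957) had 9.42 for Hcn2, 9.36 for Kcnc1 and 10.37 for Cacng5, against 8.06 to 8.31, 7.96 to 9.03 and 8.60 to 9.11 in the 4 OPT15 Early-ADC prostates. It stood above the highest OPT18 Early-ADC prostate, of an older group, for 7 of the 15 genes. Against the 4 OPT15 Early-ADC prostates of its own age it stood highest for all but Cacna1h, Hcn3 and Kcnu1. For neither was a share counted over all genes.

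**Figure D4:**
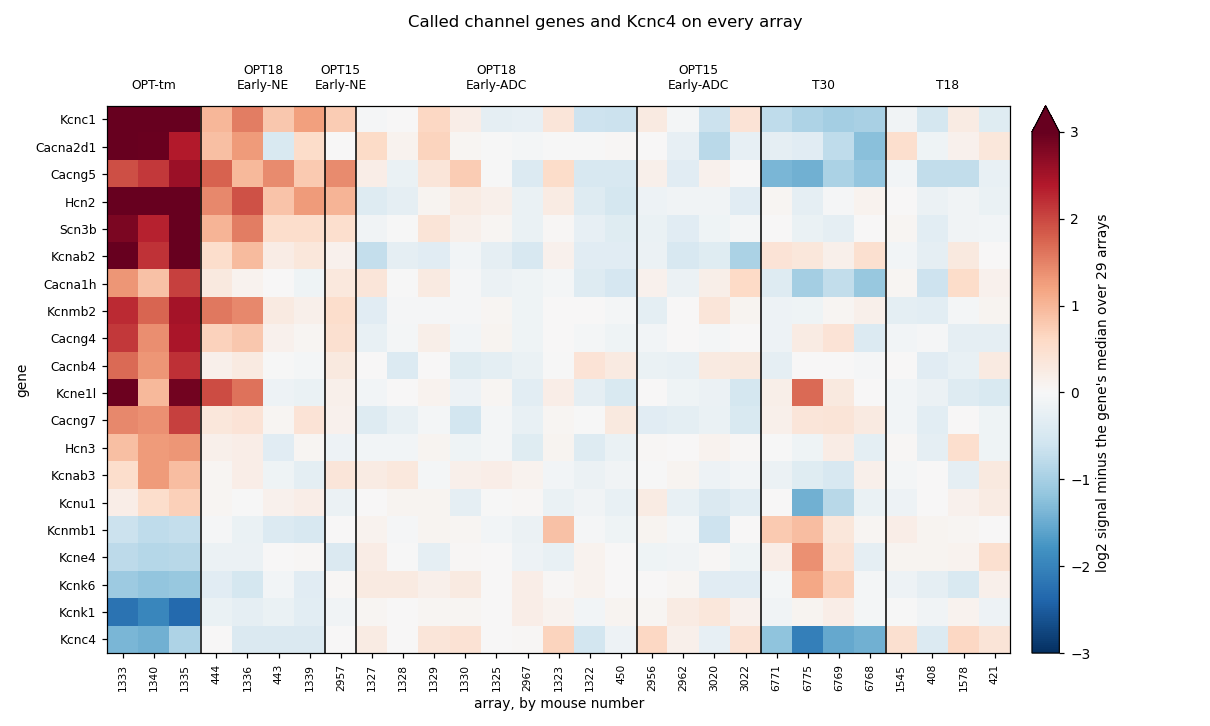
Log2 signal minus the median of that gene over 29 arrays (colour scale, ending at 3) for the 19 genes called in OPT-tm against T30 and for Kcnc4 (y axis), on every array ordered by group and labelled by mouse number (x axis). The Early-NE mice OPT18_444 and OPT18_1336 are red for Kcnc1, Cacng5, Hcn2, Scn3b, Kcnmb2 and Kcne1l, and mice OPT18_443 and OPT18_1339 are red for Kcnc1, Cacng5 and Hcn2 but not for Kcne1l.

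T30 prostates were compared with T18 prostates of the same genotype. In this comparison 0 members were higher and 1 was lower at the same limits in limma, against 0.241% and 1.24% of all genes. An unadjusted p under 0.05 was reached in limma by 18 of 59 members and by 1896 of 10768 genes. The median difference over members was 0.00. Kcnc4 had log2 signals of 8.41, 7.57, 8.09 and 8.18 in T30, against 10.11, 9.22, 10.24 and 10 in T18. It was detected in no T30 and in every T18 prostate, with no overlap, and was at least 2.20-fold lower in T30 (fitted log2 difference -1.83, standard error 0.25, adjusted p = 0.00529 from limma). Within chips 1 to 4 the difference was -1.70, -1.65, -2.15 and -1.82.

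Markers of skeletal muscle were lower in the same comparisons as Kcnc4. All 10 listed markers were measured, and 9 were lower in T30 than in T18 (median -3.03). Their mean log2 signal was 8.84 to 9.18 in T30, where 6 markers were detected on no array, against 11.32 to 12.58 in T18. In OPT-tm it was 8.12 to 8.74, with 5 markers undetected, against 10.26 to 12.12 in OPT18 Early-ADC and 11.10 to 11.85 in OPT18 Early-NE, and all 10 markers were lower in OPT-tm than in OPT18 (median -2.71). Among the 4 OPT15 Early-ADC mice the marker means were 12.20, 12.30, 9.79 and 9.87 beside Kcnc4 signals of 10.24, 9.77, 9.37 and 10.05. In the 9 OPT18 Early-ADC mice the marker means were 11.41, 11.56, 11.34, 11.61, 10.26, 10.44, 12.12, 10.30 and 11.15. Their Kcnc4 signals were, in the same order, 9.87, 9.62, 9.98, 10.05, 9.62, 9.66, 10.29, 9.06 and 9.46. The 4 OPT18 Early-NE mice had marker means of 11.85, 11.80, 11.69 and 11.10 beside Kcnc4 signals of 9.62, 9.18, 9.19 and 9.18. The part of skeletal muscle in the Kcnc4 values was not tested.

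Kcnc1, Cacng5 and Cacna2d1, which were high in OPT-tm, were at their lowest in T30 rather than in T18. Kcnc1 averaged 7.69 ± 0.11 in T30 and 8.42 ± 0.33 in T18 (SD, n = 4 each), a difference of -0.73 that did not pass (adjusted p = 0.065 from limma). Cacng5 differed by -0.78 (adjusted p = 0.0749 from limma) and Cacna2d1 by -0.86 (adjusted p = 0.0977 from limma), both with no overlap between T30 and T18. The share of all genes with no overlap was not counted. Of the other genes higher in OPT-tm, Cacna1h differed by -0.84 and Kcnu1 by -0.66. Kcne1l (0.82) and Cacng7 (0.43) were higher in T30 with no overlap. Kcnab2 differed by 0.36 and the rest by -0.21 to 0.19, and none of these passed. OPT-tm against T30 and T30 against T18 share the T30 arrays, so a low T30 value enters both. Kcnk6 averaged 10.67 ± 0.59 in T30 and 10.05 ± 0.25 in T18 (SD, n = 4 each), which did not pass (0.62, adjusted p = 0.283 from limma).

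**Figure D5:**
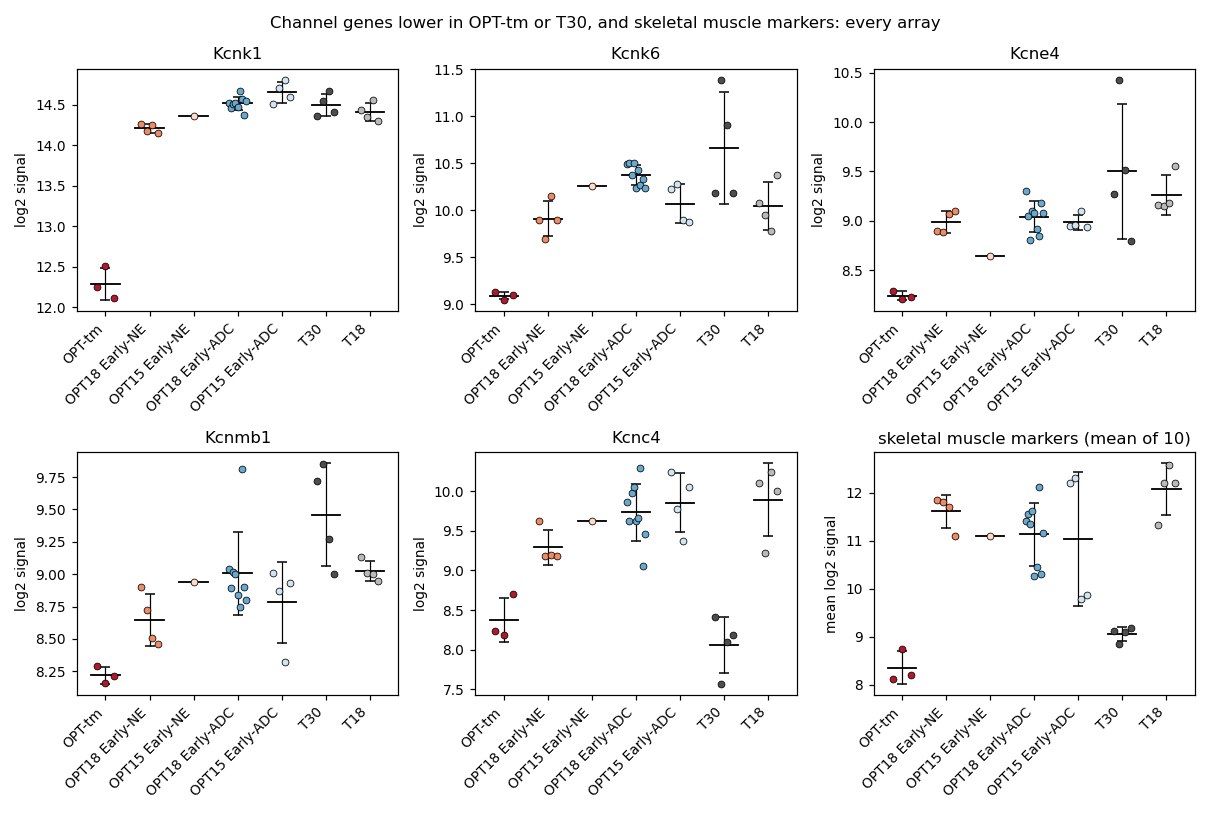
Log2 signals (y axes) of 4 genes called lower in OPT-tm against T30, of Kcnc4, and the mean log2 signal of 10 skeletal muscle markers, 1 point per array, by group (x axes), with lines at group means and bars giving the SD. For Kcnc4 and the muscle markers both OPT-tm and T30 lie below the other groups, whereas for Kcnk1, Kcnk6 and Kcne4 the OPT-tm prostates alone do.

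OPT18 Early-ADC prostates were compared with T18 prostates. The 9 mice are those that fell into 1 cluster with T18 when the same arrays were clustered, and the 4 that stood apart are left out, so the comparison is conditioned on likeness to T18 and is no independent test of osteopontin loss. In limma 0 members were higher and 0 lower, against 0.00929% and 0.0186% of all genes. An unadjusted p under 0.05 was reached by 7 of 59 members and by 632 of 10768 genes. Differences ran from -0.50 for Scn4b to 0.48 for Cacng5, with a lowest adjusted p of 0.457 for Scn4b. With all 13 OPT18 prostates, which does not use the classes, limma called 0 members higher and 0 lower against T18, with a lowest adjusted p of 0.301. T18 arrays are shared with the comparison of T30, where Scn4b differed by -0.89.

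Genes outside the families were read from 2 lists. Of 32 genes whose proteins bind or anchor these channels, 23 were tested, and OPT-tm gave 9 higher and 0 lower against T30 (median 0.86), beside 11.5% and 12.5% of all genes, with 8 higher and 2 lower against OPT18. Lgi1, a secreted protein that regulates Kv1 channels, differed by 3.67 (standard error 0.34, adjusted p = 8.26e-05 from limma). Rims2, an active zone protein that binds calcium channel beta subunits, was undetected in T30 and at least 4.29-fold higher in OPT-tm. Of 67 genes of other channel families, 34 were tested, and here OPT-tm gave 2 higher and 11 lower against T30 (median -0.31), with 2 higher and 13 lower against OPT18. Over all genes 11.5% were higher and 12.5% lower against T30, and 12.3% and 13.6% against OPT18. Smooth muscle, luminal, basal and seminal vesicle markers were lower beside the lower genes of this list (medians -3.01, -2.91, -2.95 and -5.60 against T30). The part of these tissues was not tested. The higher ones were Asic1, an acid-sensing sodium channel that was at least 2.39-fold higher, and Trpv2, a cation channel of the TRP family, at 1.01 (adjusted p = 0.000872 from limma). Among the lower genes undetected in OPT-tm were Ano9, an anoctamin, and P2rx1, an ATP-gated channel of smooth muscle. Ano9 was detected in 3 of 4 T30 prostates and was at least 5.61-fold lower in OPT-tm. Its log2 difference was -2.92 with a wide standard error of 0.96 (limma, adjusted p = 0.0374). P2rx1 was lower by at least 4.51-fold (limma, adjusted p = 1.58e-05). In T30 against T18 the lists gave 0 higher and 2 lower, and 0 higher and 1 lower, beside 0.241% and 1.24% of all genes.

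The size of a difference in a dim gene depended on how background was handled. With neqc the log2 difference in OPT-tm against T30 was 5.38 for Cacng5, 4.73 for Scn3b, 3.64 for Cacna1h, 3.57 for Kcnmb2, 3.41 for Cacng4, 2.33 for Hcn3, 2.29 for Cacng7, 2.76 for Kcne1l, 1.93 for Kcnab3, 1.81 for Kcnu1, -2.37 for Kcne4 and -2.42 for Kcnmb1. Each was over 1.5 times the log2 difference without background correction. Where only a bound is given above, that difference was 3.43 for Cacng5, 2.18 for Kcnmb2, 1.96 for Cacng4, 1.22 for Hcn3, -1.26 for Kcne4 and -1.24 for Kcnmb1. Neqc also called Cacna2d3 (1.82), Kcnh5, Kcnip2 (1.11), Kcnj3 and Scn1a higher and Kcnab1 (-1.48) and Kcnq1 lower, of which Kcnh5, Kcnip2 and Scn1a were detected in OPT-tm alone and so had to be brighter there. Kcnc4 differed by -3.25 in T30 against T18 and by -2.24 in OPT-tm against OPT18 with neqc. The call of Kcnu1 ended (adjusted p = 0.0567 from limma).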

How the data were processed

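RNA of 29 prostates was hybridised, each from its own mouse. The labels gave group, mouse name and class, and list 13 OPT18 mice, a number that differs from the methods of the study. The authors deposited BeadStudio output, with the intensity and the detection p-value of every probe before normalization, and a table of log2 values after robust spline normalization with lumi. Here the intensities were log2 transformed without background correction and quantile normalized over 29 arrays, because robust spline normalization was not installed. Of 25697 probes, 15825 reached p under 0.01 on 1 or more arrays. Each gene was read from its most often detected probe (10768 genes, 10 members with over 1 probe kept), and symbols came from the platform annotation, checked against RefSeq GRCm38.p6.

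Groups were compared with limma 3.58.1 in R 4.3.3, with only the compared groups in a fit, Benjamini-Hochberg adjustment over all genes, an adjusted p under 0.05 and at least 2-fold, as in the methods of the study. For a gene that no array of a group detected the fold change is a lower bound (at least N-fold), with each of those arrays set to its lowest detected signal, or to the gene's own signal where higher. The code was tested on simulated data. The members and lists were chosen with earlier results of these data known. Named genes were the largest rises and falls past the threshold with no overlap (in OPT-tm against T30 up to 6 Kcn, 4 Cacn and 3 Scn genes each way, up to 3 each way elsewhere), every Hcn gene, of the genes not passed the 2 Kcn and 2 Cacn genes detected on the largest number of arrays (6 for Cacna1a), and up to 2 rises and 2 falls of each list. Other genes were named after their values were seen. Alternatives were the authors' log2 values, neqc (offset 16), equal array medians, other filters and probes, a fit over all 29 arrays, a chip block, trend and robust settings of limma, and leaving out single mice. The number of arrays limits the precision. Plots were drawn with matplotlib.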

Additional observations from a re-analysis of the deposited data

Results flagged for a closer look

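Among the named genes, 120 sets of 4 to 9 arrays of one group were searched for a single array far from the rest, and 6 held one, where chance gives about 1 in 20. Cacng7 was 8.24 in OPT18 Early-NE mouse OPT18_443, with the other 3 between 8.52 and 8.58. Kcnc4 was 9.62 in OPT18 Early-NE mouse OPT18_444, with the others at 9.18 to 9.19. Kcne4 was 9.56 in T18 mouse T18_421, against 9.15 to 9.18 in the other T18 mice, and 9.10 in OPT15 Early-ADC mouse OPT15_3020, against 8.94 to 8.96. Kcnmb1 was 9.81 in OPT18 Early-ADC mouse OPT18_1323, against 8.75 to 9.04 in the other 8. Kcnmb2 was 7.96 in OPT18 Early-ADC mouse OPT18_1327, against 8.17 to 8.36.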

How the results depend on the processing

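In OPT-tm against T30, 13 to 19 members were higher under the alternatives that kept all mice and 13 to 14 with 1 mouse left out, and 2 to 7 and 3 to 6 were lower. The 2 lower calls came from genes detected on every array of a group (28 members tested), where 15.6% of all genes were lower. The 7 came from no minimum fold. Neqc gave 19 higher and 6 lower of 59 members, with 15.4% of all genes higher and 16.8% lower, in place of 11.5% and 12.5%. In OPT-tm against OPT18, neqc gave 23 higher and 10 lower, and no minimum fold gave 29 and 13. With neqc 69.7% of member calls were higher in place of 81.2%, against 48.1% in place of 47.5% of calls over all genes. Early-NE prostates alone as the reference, a class drawn from these same arrays, gave 11 higher and 1 lower. The shares of all genes called with these settings against OPT18 are not given, so these counts are not read as particular to channels. With 1 OPT-tm mouse left out, 14 to 15 were higher and 3 to 3 lower. In T30 against T18, neqc and no minimum fold each gave 2 lower, Scn4b beside Kcnc4, and every setting gave 0 higher. Leaving out 1 mouse gave 1 lower in each fit. With equal array medians 2.41% of all gene calls there were higher in place of 16.2%. In OPT18 Early-ADC against T18 every setting gave 0 and 0. The difference of Cacnb2, which was not called, turned to -0.21 with neqc, and with 1 mouse left out ran from -0.55 (without OPT-tm mouse OPT18_1333) to 0.32 (without OPT-tm mouse OPT18_1340), with -0.03 without T30 mouse T30_6769. Of the other values under alternatives of genes named by the rule and of Cacnb4, Cacng7 and Kcne1l, 490 kept their direction and their side of the limits and 18 lost a call. Over all 59 members, and apart from no minimum fold, calls were gained 12 times in OPT-tm against T30, 25 times against OPT18 and 1 time in T30 against T18. The same count was not made over all genes. Dim genes detected on few arrays of chips 3 and 4 have only bounds there. The cause of these moves was not tested, apart from the fewer genes or mice that a setting itself leaves.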
